A study of Bos taurus with 12 samples.

Results

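The transcripts that make, carry, break down and sense prostaglandins, together with the oxytocin receptor, were followed in bovine endometrium at day 3 and day 7 of the cycle. These were PTGS1, PTGS2, PTGES, PTGIS and AKR1B1 for synthesis, SLCO2A1 for transport, HPGD for breakdown, and PTGER4, PTGFR and OXTR as receptors. Members were all probe sets to which the platform annotation gives 1 of these 10 gene symbols alone, which gave 16 of the 24016 probe sets without controls. PTGS2 and PTGFR had 3 probe sets each, PTGS1 and HPGD had 2 each, and the other 6 genes had 1 each. Where a gene had several, the probe set with the highest mean signal over the 12 arrays leads its description, and the others are numbered by falling mean signal.

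The samples were endometrial brush biopsies from Simmental heifers after estrous synchronization, taken in the cycle that preceded the transfer of a blastocyst produced in vitro. Heifers later found pregnant gave the groups HR3 and HR7 (labelled receptive, high receptivity), and those not pregnant gave LR3 and LR7 (labelled non receptive, low receptivity). The digit is the day of the cycle, the heifers carried no genetic modification that the labels name, and their age is not given in the sources used here. Each array was hybridized with RNA pooled from 5 biopsies, with 3 pools per group and 4 groups. Pooling averages over heifers, so the errors below are spreads between pools, and the labels tie no pool of one day to a pool of the other. The study calls its design longitudinal, so the same heifers may be in pools of both days. The main fit treats the arrays as independent. A brush samples the lining of the uterus as a mixture of cells, and fewer cells of a type cannot be told apart from less RNA per cell. As a check of the tissue, 8 of 9 measured markers of uterine epithelium exceeded the array median on each array of a group, and this held for each of the 4 groups.

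Prostaglandins arise from arachidonic acid, which the cyclooxygenases PTGS1 and PTGS2 turn into a common precursor. Terminal enzymes then make the single products: PTGES makes prostaglandin E2, PTGIS makes prostacyclin, and AKR1B1, an aldose reductase, can make prostaglandin F2α. SLCO2A1 takes prostaglandins up into cells, where HPGD oxidizes them to products with little activity. In ruminants, pulses of prostaglandin F2α from the endometrium end the life of the corpus luteum late in the cycle, and luteal oxytocin drives these pulses through the endometrial oxytocin receptor. Prostaglandin E2 acts through receptors that include PTGER4, and prostaglandin F2α through PTGFR.

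From day 3 to day 7, transcripts of 3 enzymes of synthesis (PTGS2, PTGIS and AKR1B1) and of the enzyme of breakdown (HPGD) became more abundant, and that of OXTR became less abundant. Over HR and LR together, the lead probe sets of these 5 of 10 genes passed the test, limma with Benjamini-Hochberg adjustment over all probe sets at an adjusted p under 0.05. Of the 16 probe sets 6 rose and 1 fell, or 43.8%, where 26.5% of all probe sets passed (12.5% rose and 14% fell). The members were chosen with earlier results of these data known, so these shares are a description. Within HR 5 of 16 passed, 4 up and 1 down, against 11.2% of all probe sets (5.74% up and 5.44% down). Within LR 4 of 16 passed and all rose, against 11.4% of all probe sets (6.24% up and 5.21% down). The median log2 difference of the 16 was 0.58 over both, 0.52 in HR and 0.64 in LR, and that of all probe sets was -0.04 in each of these comparisons. The HR and LR changes, which share no array, had the same sign for 15 of 16 member probe sets (93.8%) and for 74.8% of all probe sets.

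**Figure D1:**
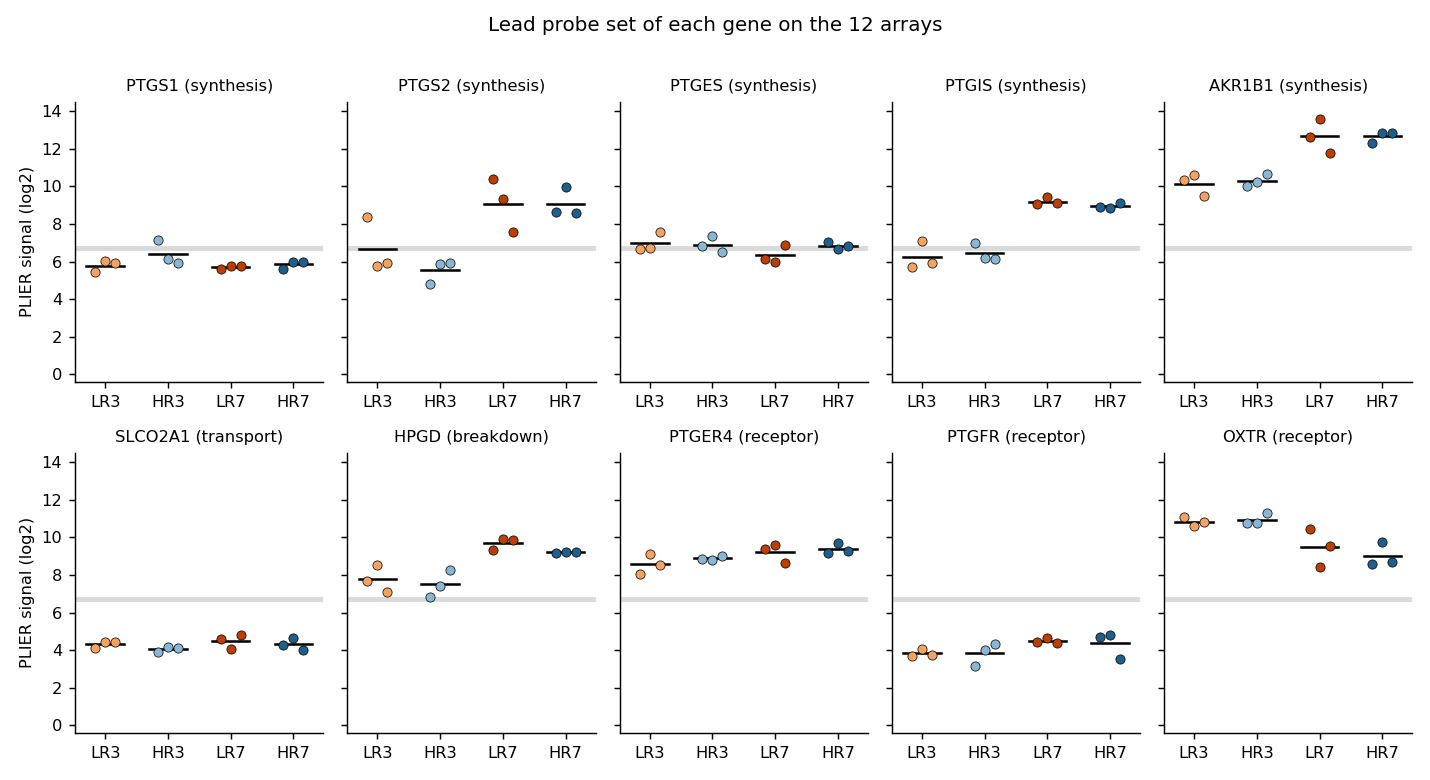
PLIER signal (log2, vertical axis) of the lead probe set of each of the 10 genes on the 12 arrays, by group; points are pools, black lines are group means and the grey band spans the array medians, 6.64 to 6.77. PTGIS, AKR1B1 and HPGD lie higher on every day 7 array than on any day 3 array, OXTR lies lower, and SLCO2A1 and PTGFR stay below the grey band on all arrays.

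Among the enzymes of synthesis, PTGIS had the smallest adjusted p of all members. On day 3 the HR3 pools gave log2 signals of 6.99, 6.17 and 6.14 and the LR3 pools 5.70, 7.09 and 5.90. On day 7 the HR7 pools gave 8.93, 8.85 and 9.10 and the LR7 pools 9.04, 9.42 and 9.12. All 6 day 7 arrays were above all 6 day 3 arrays, and the pools of day 7 lay closer together (SD 0.13 in HR7 and 0.20 in LR7, n = 3) than those of day 3 (0.48 in HR3 and 0.75 in LR3). The difference over both was 2.75 ± 0.25 (SE), or 6.70-fold, with an adjusted p of 0.000121. It was 2.53 in HR (adjusted p = 0.00311) and 2.96 in LR (adjusted p = 0.00178). On day 3, PTGIS was above the array median on only 2 of the 6 arrays.

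AKR1B1 stood above the array median on all 12 arrays. It measured 10.34, 10.62 and 9.47 in LR3 and 10.03, 10.24 and 10.67 in HR3. On day 7 it measured 12.65, 13.61 and 11.78 in LR7 and 12.32, 12.86 and 12.84 in HR7. Every day 7 array was again above every day 3 array, and LR7 had the widest spread (SD 0.92, n = 3). The difference over both was 2.45 ± 0.31 (SE), or 5.46-fold (adjusted p = 0.000613). It was 2.36 in HR (adjusted p = 0.0107) and 2.54 in LR (adjusted p = 0.00814). With only the LR arrays in the fit, the LR difference no longer passed (adjusted p = 0.0693).

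PTGS2, the inducible cyclooxygenase, had the largest difference of the members over both and in HR, though not in LR, and wide spreads between pools. Its lead probe set measured 4.82, 5.89 and 5.93 in HR3 and 8.65, 9.98 and 8.57 in HR7, so the days did not overlap in HR. In LR it measured 8.36, 5.79 and 5.94 on day 3 and 10.38, 9.31 and 7.56 on day 7. LR3 pool 1 was thus above LR7 pool 3. Over both, the difference was 2.95 ± 0.59 (SE), or 7.75-fold (adjusted p = 0.00559). In HR it was 3.52 ± 0.83 (adjusted p = 0.026) and in LR 2.39 ± 0.83 (adjusted p = 0.0927). The difference between these changes was 1.13 with a 95% confidence interval from -1.49 to 3.76, which did not pass.

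Leaving out single pools moved the PTGS2 call within each group. The LR difference was 3.22 (adjusted p = 0.0445) without LR3 pool 1 and 3.15 (adjusted p = 0.0393) without LR7 pool 3. It also passed with an intensity trend (adjusted p = 0.049) and with the filter on invariant and low signals (adjusted p = 0.0252). In all, the LR difference passed in 4 of 24 alternatives. The HR difference no longer passed without any 1 of the 3 HR3 pools or without HR7 pool 1 or 2, where the adjusted p was 0.0577 to 0.0962. Over HR and LR together it passed in all of 24 alternatives.

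The other 2 probe sets of PTGS2 were below the array median on all arrays. The second probe set measured 3.68, 3.75 and 3.65 in HR3 and 3.90, 5.53 and 4.76 in HR7. It was 5.51, 0.86 and 2.89 in LR3 and 4.30, 3.87 and 4.46 in LR7. The pools of LR3 alone thus spanned most of its range, and the difference over both was 1.08 ± 0.65 (adjusted p = 0.25). Without LR3 pool 1 it was 1.69 (adjusted p = 0.0163). Probe set 3 lay between 0 and 3.68 and had a difference of 0.11 (adjusted p = 0.884). The mean over the 3 probe sets did not pass in HR (1.51, adjusted p = 0.121).

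PTGES and PTGS1 passed in no day comparison. PTGES, the inducible prostaglandin E synthase, measured 6.85, 7.37 and 6.51 in HR3 and 7.03, 6.69 and 6.82 in HR7. It was 6.69, 6.74 and 7.58 in LR3 and 6.13, 6.0 and 6.88 in LR7. The days overlapped in both groups, and the difference was -0.06 (95% confidence interval -0.76 to 0.64) in HR and -0.67 (-1.37 to 0.03) in LR. The interval in LR thus reaches past 1 log2 unit downward.

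PTGS1, the constitutive cyclooxygenase, stood above the array median on 1 of 12 arrays, HR3 pool 1 at 7.15. The other HR3 pools were at 6.15 and 5.93, LR3 was at 5.43, 6.04 and 5.90, HR7 at 5.60, 5.99 and 5.98, and LR7 at 5.63, 5.76 and 5.75. The days overlapped within HR and within LR, and the HR difference of -0.55 was -0.18 without it. Neither difference passed (adjusted p = 0.253 with the pool). The second probe set of PTGS1 lay between 3.58 and 5.01 and had a difference of -0.23 ± 0.25 (SE) over HR and LR.

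The transporter SLCO2A1 was measured by 1 named probe set, which stayed below the array median on all 12 arrays. The pools gave 4.12, 4.43 and 4.42 in LR3, 3.91, 4.18 and 4.10 in HR3, 4.62, 4.05 and 4.82 in LR7 and 4.28, 4.64 and 4.03 in HR7. The groups overlapped, and the difference over both was 0.21 (95% confidence interval -0.13 to 0.55, adjusted p = 0.339). A further probe set has no symbol in the platform annotation and is named SLCO2A1 only in the study's lists, which were made from these arrays. Its range was 6.28 to 6.56 in LR3, 6.20 to 6.60 in HR3, 6.49 to 7.02 in LR7 and 7.0 to 7.33 in HR7. It is no member and was given no test.

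HPGD, which inactivates prostaglandins, rose by both of its probe sets over HR and LR together. The lead probe set measured 6.84, 7.39 and 8.28 in HR3 and 9.19, 9.25 and 9.24 in HR7. It was 7.68, 8.53 and 7.10 in LR3 and 9.35, 9.89 and 9.84 in LR7. All day 7 arrays were above all day 3 arrays, and the HR7 pools were nearly alike (SD 0.03, n = 3) where the HR3 pools had an SD of 0.73. The difference over both was 1.82 ± 0.28 (SE), or 3.54-fold (adjusted p = 0.00157). It was 1.72 in HR (adjusted p = 0.0239) and 1.92 in LR (adjusted p = 0.0157).

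The second HPGD probe set was below the array median throughout. It measured 4.74, 5.44 and 4.49 in LR3, 4.05, 4.97 and 5.94 in HR3, 6.35, 6.45 and 6.42 in LR7 and 5.90, 6.24 and 5.75 in HR7. It moved the same way, by 1.25 ± 0.29 (SE) over both (adjusted p = 0.0112), with an overlap of the days in HR. There the difference was 0.98 (adjusted p = 0.156), and 1.45 (adjusted p = 0.0363) without HR3 pool 3. In LR it was 1.52 (adjusted p = 0.0406). That call was lost without LR3 pool 1 or 3, any 1 LR7 pool, HR3 pool 2 or any 1 HR7 pool (adjusted p = 0.0549 to 0.109). The call of the lead probe set in HR was lost without HR3 pool 1 or 2 or any 1 HR7 pool (adjusted p = 0.0611 to 0.0763). Its call in LR was lost without LR3 pool 1 (adjusted p = 0.0513) or LR7 pool 2 (adjusted p = 0.0522), and with only the LR arrays in the fit (adjusted p = 0.0657). The LR call of the second probe set was also lost with only the LR arrays (adjusted p = 0.0521), in an ordinary linear model (adjusted p = 0.0683) and with joint adjustment over the 6 comparisons (adjusted p = 0.0611).

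**Figure D2:**
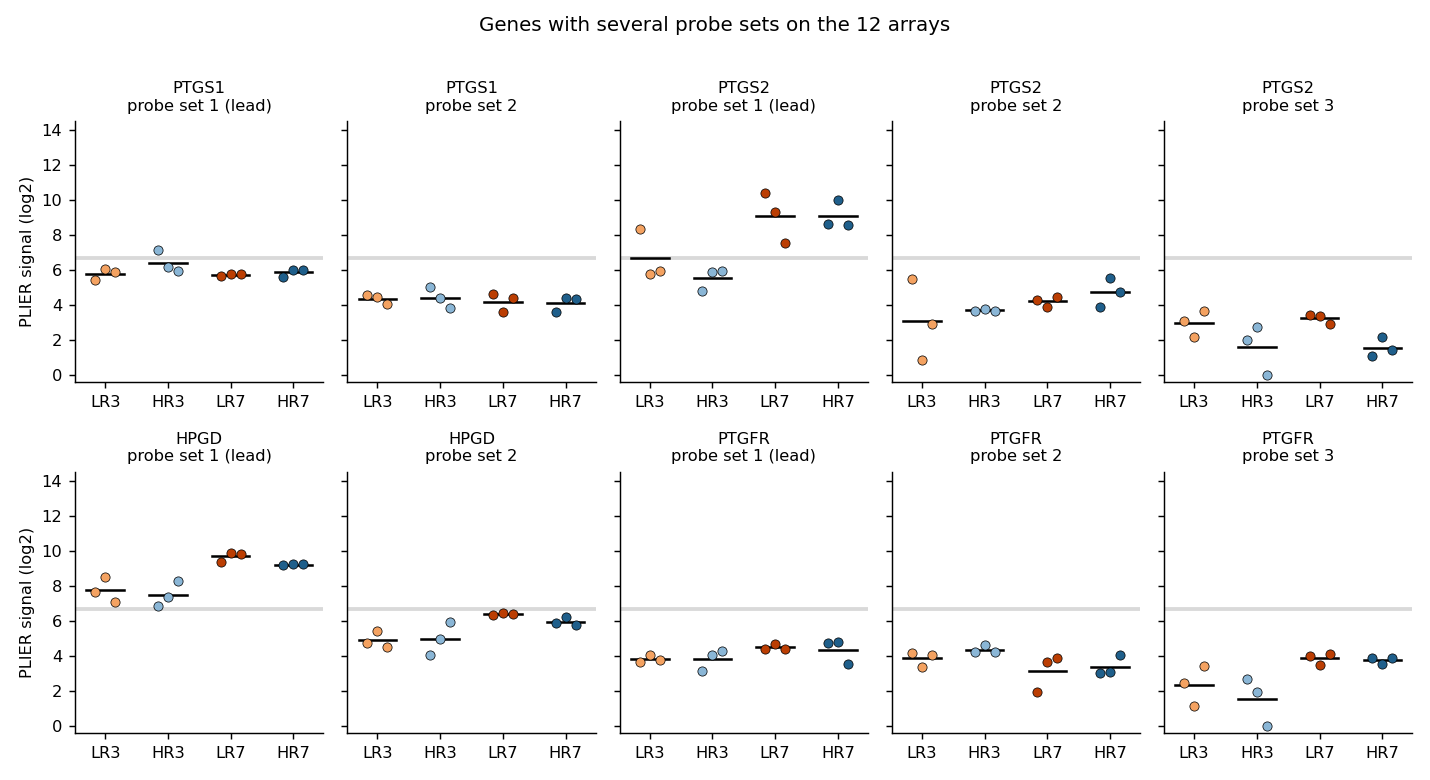
PLIER signal (log2, vertical axis) of every probe set of the 4 genes that have several, by group; points are pools, black lines are group means and the grey band spans the array medians. Both HPGD probe sets are higher on day 7, the lead probe set of PTGS2 differs between the days by 2.95 where the other 2 differ by 1.08 and 0.11, and the 3 PTGFR probe sets do not move alike.

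Among the receptors, OXTR was the only member that fell. It measured 11.11, 10.59 and 10.83 in LR3 and 10.79, 10.76 and 11.28 in HR3. On day 7 it measured 10.45, 8.43 and 9.56 in LR7 and 8.56, 9.75 and 8.71 in HR7. Every day 7 array was below every day 3 array, and all 12 stayed above the array median. The day 3 pools lay close together (SD 0.29 in HR3 and 0.26 in LR3, n = 3) and the day 7 pools did not (0.65 in HR7 and 1.01 in LR7). The difference over both was -1.65 ± 0.33 (SE), which is 3.14-fold lower on day 7 (adjusted p = 0.00583).

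In HR the OXTR difference was -1.94 ± 0.47 (adjusted p = 0.0285) and in LR -1.36 ± 0.47 (adjusted p = 0.0889). The difference between the changes, HR minus LR, was -0.57 (95% confidence interval -2.05 to 0.91) and did not pass. LR7 pool 1, at 10.45, was the closest to day 3. Without it the LR difference was -1.85 and passed (adjusted p = 0.0426), and without LR7 pool 2 it was -0.84. The LR difference also passed with 16 added to the signal (adjusted p = 0.0489), an intensity trend (adjusted p = 0.0461) and the filter on invariant and low signals (adjusted p = 0.0249). In all, it passed in 4 of 24 alternatives. The HR call was lost without any 1 HR3 pool or without HR7 pool 1 or 3 (adjusted p = 0.0643 to 0.0923), and in an ordinary linear model without moderation (adjusted p = 0.052).

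PTGER4, a receptor of prostaglandin E2 that raises cyclic AMP, was above the array median on all arrays. It measured 8.83, 8.81 and 9.0 in HR3 and 9.19, 9.69 and 9.26 in HR7, with no overlap. It was 8.08, 9.12 and 8.54 in LR3 and 9.36, 9.59 and 8.65 in LR7, with an overlap. The difference over both was 0.56 ± 0.21 (SE), or 1.47-fold, and did not pass (adjusted p = 0.0724). It passed without LR3 pool 2 (0.70, adjusted p = 0.0287) or LR7 pool 3 (0.70, adjusted p = 0.0248). It also passed with 16 added to the signal, an intensity trend, array weights, or the filter on invariant and low signals, with adjusted p between 0.0244 and 0.0435. In all, it passed in 6 of 24 alternatives.

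The 3 probe sets of PTGFR, the receptor of prostaglandin F2α, were below the array median on all arrays and did not move alike. The lead probe set measured 3.68, 4.04 and 3.76 in LR3, 3.16, 4.03 and 4.31 in HR3, 4.42, 4.67 and 4.37 in LR7 and 4.72, 4.82 and 3.55 in HR7. Its difference of 0.60 over both did not pass (adjusted p = 0.112), but did without HR7 pool 3 (0.80, adjusted p = 0.0205). The second probe set had a difference of the opposite sign, -0.84 ± 0.34 (SE), which did not pass either (adjusted p = 0.0988). The mean over the 3 probe sets differed by 0.55 over both and passed (adjusted p = 0.0397).

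Taken by itself, only the dimmest, PTGFR probe set 3, passed over both. It measured 2.48, 1.12 and 3.40 in LR3, 2.68, 1.96 and 0 in HR3, 4.01, 3.50 and 4.13 in LR7 and 3.91, 3.55 and 3.88 in HR7. All day 7 arrays were above all day 3 arrays, by 1.89 ± 0.48 (SE) over both (adjusted p = 0.0168). With 16 added to the linear signal, which damps low values, the difference was 0.55, and it passed over both, in HR (adjusted p = 0.0221) and in LR (adjusted p = 0.0476). As deposited, its difference of 2.23 in HR did not pass (adjusted p = 0.0619), nor did that of 1.55 in LR (adjusted p = 0.168). That in HR passed with array weights (adjusted p = 0.0238), an intensity trend (adjusted p = 0.048), and without HR3 pool 1 (adjusted p = 0.0457) or LR3 pool 2 (adjusted p = 0.0451). In all, the HR difference passed in 5 of 22 alternatives and the LR difference in 1 of 22. At these signals the direction of PTGFR depends on the probe set that is read.

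**Figure D3:**
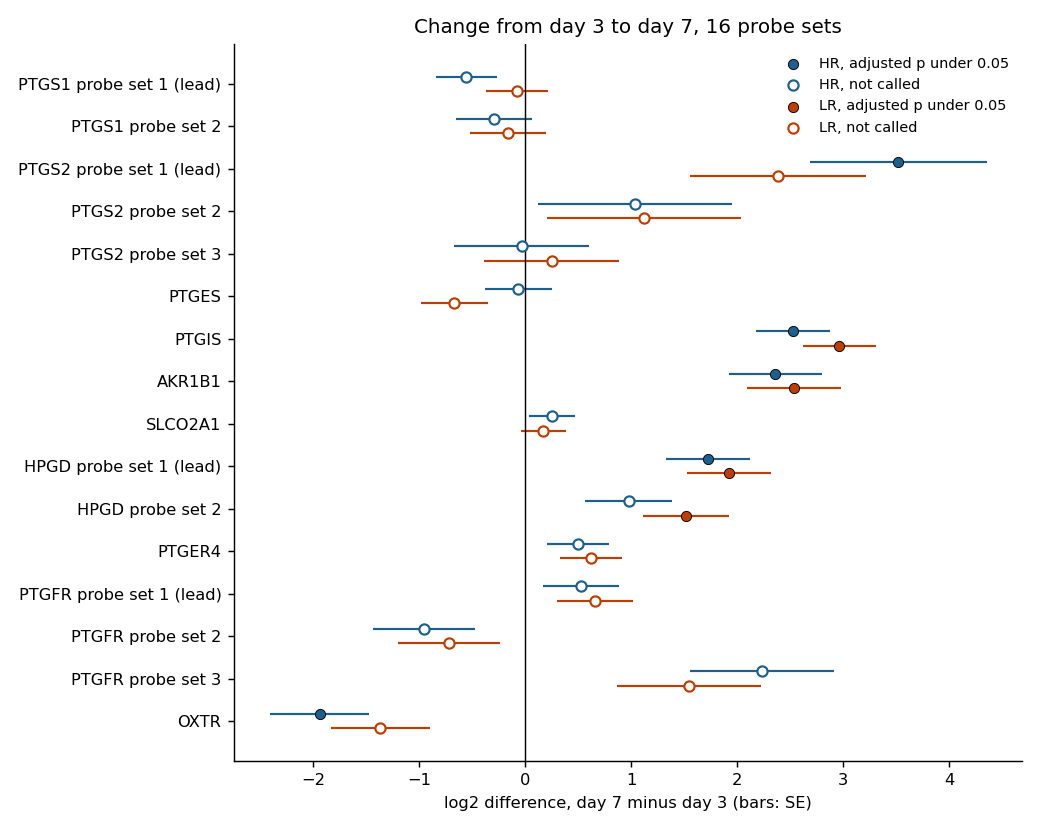
Change of each of the 16 member probe sets from day 3 to day 7 (log2 difference, horizontal axis; bars are SE) in HR (blue) and LR (red); filled points have an adjusted p under 0.05. PTGIS, AKR1B1 and the lead probe set of HPGD are filled in both groups, and the lead probe set of PTGS2 and OXTR are filled in HR and open in LR, on the same side of 0.

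The second question was whether these transcripts differed between the endometria of heifers that later became pregnant and those that did not. No member passed on day 3 or on day 7, where 0.00416% (1 probe set) and 0.00833% (2 probe sets) of all probe sets passed. At an unadjusted p under 0.05, 0 of 16 stood out on day 3 and 1 of 16 on day 7, beside 1633 and 918 of all 24016, and an ordinary linear model without moderation called none of the 10 genes. The intervals leave room for differences of some size. On day 3 the HR minus LR difference was 0.17 for AKR1B1 (95% confidence interval -0.81 to 1.15), 0.20 for PTGIS (-0.57 to 0.98), -0.27 for HPGD (-1.15 to 0.62) and 0.10 for OXTR (-0.95 to 1.15). For PTGS2 it was -1.15 (-3.01 to 0.71), and without LR3 pool 1 it was -0.32. The intervals for PTGS2 were the widest among the lead probe sets.

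On day 7 the group means of AKR1B1 were 12.67 in HR7 and 12.68 in LR7, and those of PTGS2 were 9.07 and 9.08. The HR minus LR difference was -0.01 for AKR1B1 (95% confidence interval -0.99 to 0.97), -0.02 for PTGS2 (-1.87 to 1.84), -0.23 for PTGIS (-1.01 to 0.54) and -0.47 for OXTR (-1.52 to 0.57). Both HPGD probe sets were lower in every HR7 pool than in every LR7 pool. The difference was -0.47 (-1.35 to 0.42) for the lead probe set and -0.44 (-1.35 to 0.47) for the second, each with an adjusted p of 1. The dimmest probe set of PTGS2 was likewise lower in every HR7 pool than in every LR7 pool. On day 3 the second probe set of PTGFR was higher in every HR3 pool than in every LR3 pool. How many of all probe sets separate HR from LR in this way was not counted. For PTGES the day 7 difference was 0.51 (-0.19 to 1.21).

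The 1 probe set with an unadjusted p under 0.05 on day 7 was probe set 3 of PTGS2. It measured 1.06, 2.16 and 1.43 in HR7 and 3.43, 3.37 and 2.90 in LR7. On day 3 it measured 2.02, 2.72 and 0 in HR3 and 3.10, 2.17 and 3.68 in LR3. All of these lie far below the array medians, and with 16 added to the linear signal the day 7 difference of -1.68 was -0.42. The lead probe set of PTGS2 had no such difference between HR7 and LR7.

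No member passed in the interaction of receptivity and day, where 0.00416% of all probe sets (1) passed and 0 of 16 members had an unadjusted p under 0.05. The 2 changes that passed in HR and not in LR, those of PTGS2 and OXTR, are therefore not shown to differ between the groups. In the order of group means, both day 7 groups stood above both day 3 groups for PTGS2, PTGIS, AKR1B1, HPGD, PTGER4 and PTGFR (lead probe sets), and below them for OXTR. For none of these genes did the 2 groups of the same day differ past the threshold.

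**Figure D4:**
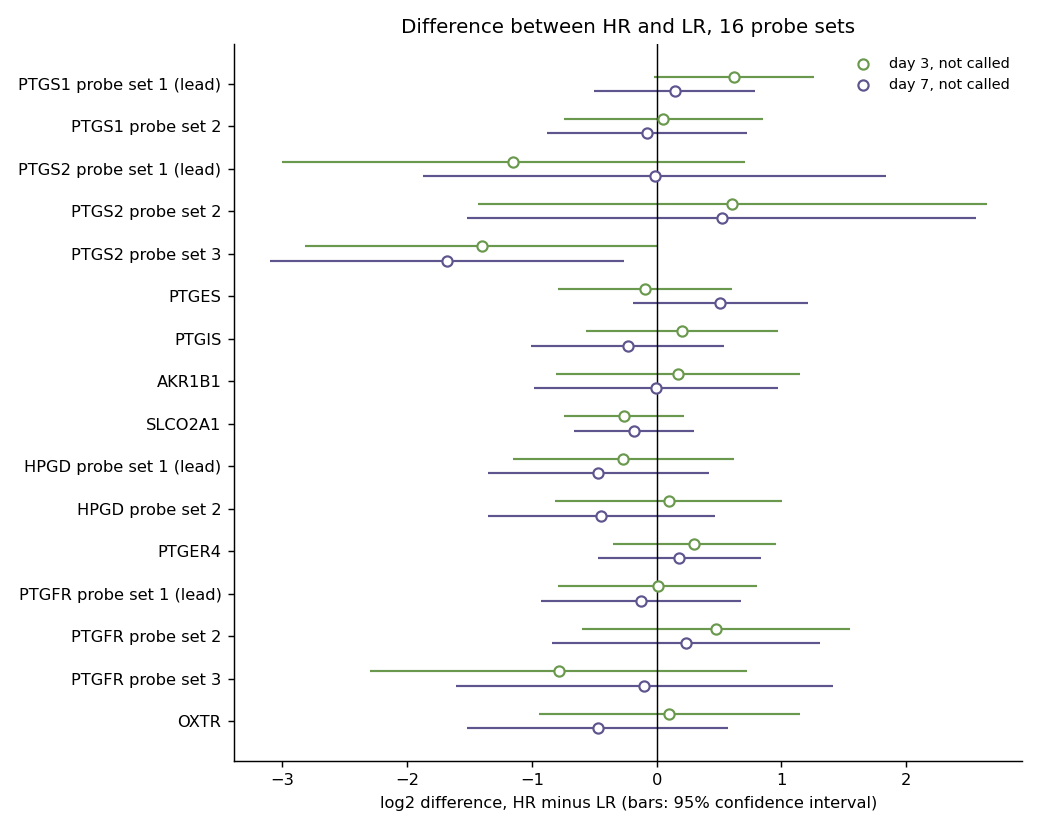
Difference between HR and LR (log2, HR minus LR, horizontal axis; bars are 95% confidence intervals) of the 16 member probe sets on day 3 (green) and day 7 (purple). No probe set has an adjusted p under 0.05, and the intervals of PTGS2 are wide where those of SLCO2A1 are narrow.

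Further genes of these pathways were counted from fixed lists. Of 90 listed symbols, older names included, 48 genes were measured, and 7 rose and 3 fell over HR and LR together (20.8%, against 26.5% of all probe sets). Each of the 48 was read by its brightest probe set, where all probe sets include dimmer ones, so the shares are not of like sets. In the release of arachidonic acid, 2 of 7 rose: PLAA, which activates phospholipase A2, by 0.33 (adjusted p = 0.0177) and the lipase PNPLA2 by 0.43 (adjusted p = 0.0156). Of the other enzymes of prostanoid synthesis, 0 of 7 passed in limma, and 1 had an unadjusted p under 0.05, PTGDS, the prostaglandin D synthase (-1.18, adjusted p = 0.073). The cytosolic prostaglandin E synthase PTGES3, at a mean log2 signal of 11.94, had a difference of -0.11 ± 0.07 (SE).

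Among the other genes of breakdown and transport 1 of 6 rose and 1 fell. The reductase PTGR3 rose by 0.44 (adjusted p = 0.0321). SLCO3A1, a transporter that carries prostaglandins, fell from 6.89, 7.04 and 7.42 in HR3 to 5.15, 6.45 and 6.25 in HR7. In LR it fell from 7.19, 7.44 and 7.08 to 5.72, 6.04 and 5.30. No day 7 pool reached the lowest day 3 pool, and the difference over both was -1.36 ± 0.23 (SE, adjusted p = 0.00246), with adjusted p of 0.0455 in HR and 0.0162 in LR. SLCO3A1 was the only gene of these lists whose fall passed the threshold in both groups.

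Of the other receptors 1 of 6 rose, the nuclear receptor PPARA, which binds fatty acids and eicosanoids, by 0.98 (adjusted p = 0.00129). PPARA lay between 3.93 and 5.93, below the array median on all arrays. PTGER2 and PTGER3, further receptors of prostaglandin E2, had differences of 0.18 (adjusted p = 0.544) and -0.19 (adjusted p = 0.424). Around the oxytocin receptor 3 of 13 rose: the caveolar protein CAV1, the calcium channel ITPR2 and the protein kinase PRKCD. CAV1 rose from 9.95, 10.31 and 10.44 in HR3 to 11.34, 11.34 and 11.25 in HR7, and from 9.82, 10.54 and 10.18 in LR3 to 10.81, 10.58 and 10.83 in LR7. Its difference was 0.82 ± 0.13 (SE) over both (adjusted p = 0.00196) and it passed within HR alone of the separate groups. The difference of the hormone itself, OXT, was -0.07 ± 0.08 (SE, adjusted p = 0.554).

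Of 9 genes of the leukotriene branch, which uses the same fatty acid, 2 fell. These were the lipoxygenase ALOX15 by 0.43 (adjusted p = 0.0111) and LTA4H, which makes leukotriene B4, by 0.53 (adjusted p = 0.00832). Within HR 3 of the 48 passed, 2 up and 1 down, and within LR 3, 1 up and 2 down, which is 6.25% in each. For HR against LR on either day and for the interaction 0 of 48 passed in limma, and 0 on day 3, 2 on day 7 and 0 in the interaction had an unadjusted p under 0.05. The median difference of the 48 over both was -0.02, beside -0.04 for all probe sets.

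**Figure D5:**
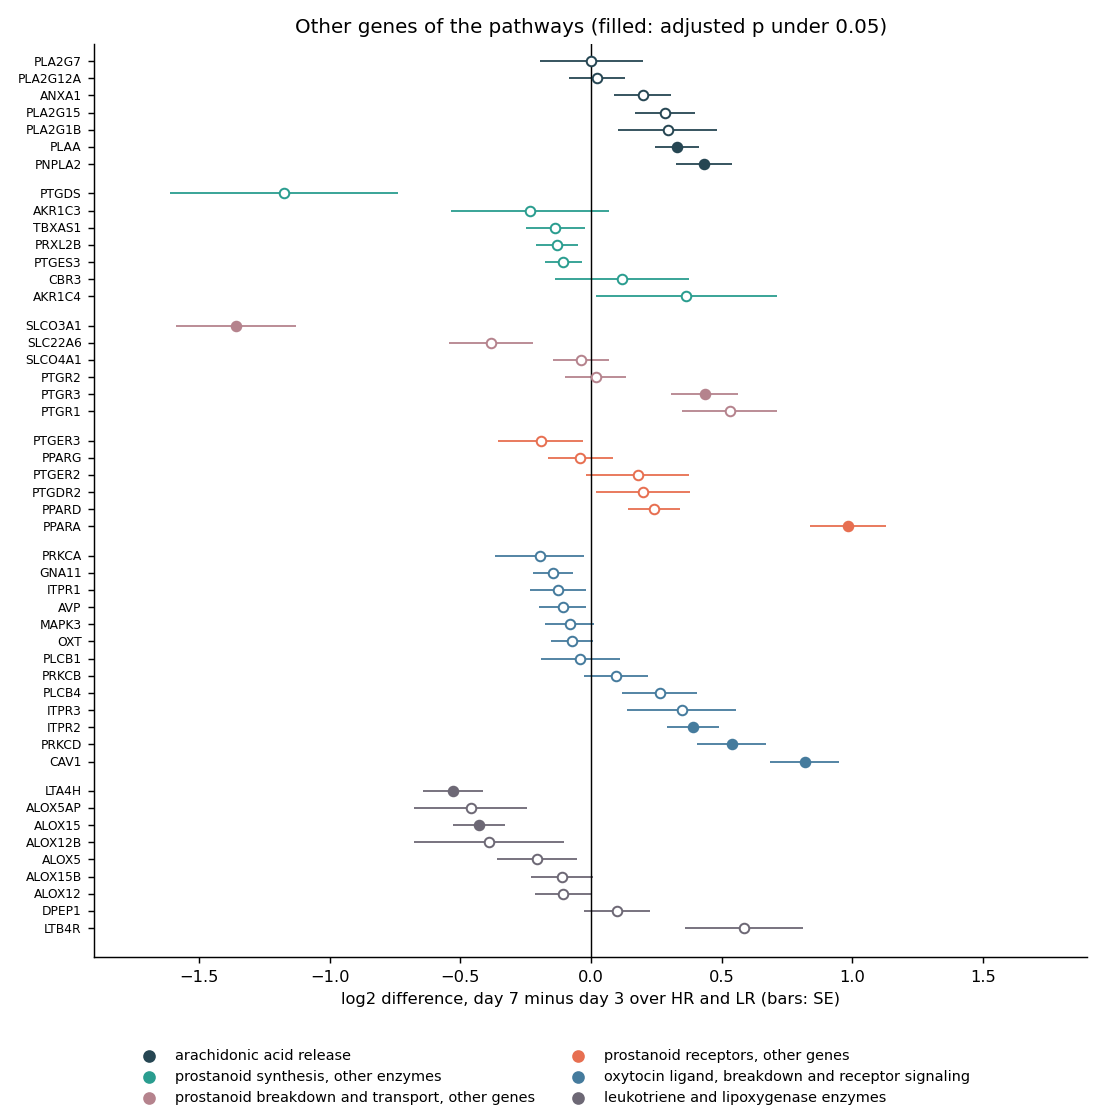
Difference from day 3 to day 7 over HR and LR (log2, horizontal axis; bars are SE) of the 48 measured genes of 6 lists around the members, each by its brightest probe set; colours mark the lists and filled points have an adjusted p under 0.05. SLCO3A1 lies farthest to the left and PPARA farthest to the right of the filled points, and no gene of the list of other synthesis enzymes is filled.

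The genes whose pattern over the 12 arrays was most like that of PTGS2, HPGD and OXTR were found by the root mean square difference of mean-centred log2 signals, as a description. For PTGS2, which varied by an SD of 1.87, they were CYP39A1 (0.63), UGT1A6 (0.66) and CA2 (0.69). For HPGD, with an SD of 1.07, they were TMEM171 (0.37), SLC29A2 (0.37) and ACSL3 (0.38). For OXTR, with an SD of 1.03, they were MME (0.35), CYP2C87 (0.42) and JUN (0.45).

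Markers of other cell types moved with the day beside the members, and their part in the members' changes was not tested. They were counted over HR and LR together unless a group is named. Of 4 measured neutrophil markers 3 rose, S100A12 by 4.15 and S100A8 by 3.87, and the summed linear signal of the list was 462 to 946 in LR3, 333 to 465 in HR3, 3543 to 5830 in LR7 and 6650 to 12709 in HR7. Of 6 squamous markers 3 rose, with sums of 254 to 464 in LR3, 306 to 440 in HR3, 535 to 668 in LR7 and 2689 to 4241 in HR7. This was the only marker list with a member that passed between HR and LR, 1 of 6 on day 7, and with a marker at 0 on an array, 1 in LR7. All 4 ciliated markers fell, with sums of 1112 to 1703 in LR3, 1013 to 1949 in HR3, 804 to 1312 in LR7 and 348 to 925 in HR7. Within HR 3 of the 4 passed (median difference -1.53), and within LR 0 passed (median difference -0.48). In LR all 4 were lower on day 7 as well. In the interaction of receptivity and day 0 of the 4 passed, and 1 had an unadjusted p under 0.05. The HR and LR changes of these markers are therefore not shown to differ.

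Of 12 stroma markers 4 fell, with sums of 6252 to 13195 in LR3, 12398 to 16101 in HR3, 4492 to 10329 in LR7 and 4160 to 15441 in HR7. In the list of T and NK cells 4 of 9 fell, with sums of 1192 to 1761 in LR3, 1228 to 1440 in HR3, 706 to 1230 in LR7 and 698 to 1054 in HR7. Of 8 macrophage markers 2 rose, CD68 by 2.02 and CD14 by 1.43, and 1 fell. This list was split, with 4 markers higher and 4 lower on day 7 and a median difference of -0.16. Its sums were 1898 to 2471 in LR3, 2155 to 3193 in HR3, 2467 to 2783 in LR7 and 2342 to 5131 in HR7. In the other lists 1 rose and 1 fell of 9 endothelial and of 9 uterine epithelial markers, 1 rose of 8 smooth muscle markers and of 5 markers of B and plasma cells, and 0 of 3 red blood cell markers passed in limma (1 at an unadjusted p under 0.05).

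Arrays of a group correlated at 0.960 to 0.970 over all probe sets. Of 7 control transcripts with a probe set at each end, some had a 5′ minus 3′ log2 signal that moved with the day. The spiked dap control gave -3.13 to -2.66 in LR3, -1.88 to -1.47 in LR7, -2.74 to -1.32 in HR3 and -2.30 to -1.77 in HR7. In LR the days were apart for dap and for bovine ef1a (0.24 to 0.82 on day 3 and 0.98 to 1.42 on day 7), both higher on day 7. Bovine actin went the other way in LR, from -0.62 to 0.55 on day 3 and from -1.53 to -0.62 on day 7. In HR the days were apart for the spiked phe control alone, at -0.53 to -0.46 on day 3 and -0.80 to -0.57 on day 7. The part of these measures in the day differences was not tested. The number of arrays, 3 in each group, limits the precision of all values.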

How the data were processed

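RNA pools of 5 endometrial biopsies were measured on 12 Affymetrix GeneChip Bovine Genome Arrays, 3 for each of 4 groups. The authors scanned with GCOS 1.1.1 under global scaling, and the deposited values are log2 signals made by the authors with PLIER in Expression Console. They run from 0 to 14.07 and were used as deposited. The authors' MAS5.0 present calls were not used here. No genome build applied and no coordinates are given. Gene symbols came from the platform annotation: of 24016 probe sets without the 112 controls, 13292 had 1 symbol, 86 several and 10638 none.

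Groups came from the sample records. Differences were estimated with limma 3.58.1 in R 4.3.3 on all 24016 probe sets and 12 arrays, with 1 mean per group and moderated errors; no filter was set, so that every member was tested. The study filtered on present calls and on a standard deviation of 0.2 and used receptivity and day as fixed effects. P values were adjusted by Benjamini-Hochberg within each of 6 comparisons, at a threshold of 0.05. Intervals are 95% confidence intervals of limma. The procedure was run on simulated data with independent normal errors, which checks the code and not the calls reported here. Named were all member probe sets, pathway genes that passed or that stand for a branch (OXT, PTGDS, PTGES3, PTGER2 and PTGER3, picked after their values were seen), and for 3 members the 3 genes most like them. Members and gene lists, 6 of pathways and 11 of cell type markers, were chosen with earlier results of these data known. Alternatives were 2 filters, 2 normalizations, 16 added to the signal, an intensity trend, no moderation, array weights, the compared groups alone, a replicate block, leaving out each pool, gene means, joint adjustment and an additive model. Figures were drawn with Python 3.11.15 and matplotlib 3.10.9.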

Additional observations from a re-analysis of the deposited data

How the results depend on the processing

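Over HR and LR together 5 of the 10 member genes passed by their lead probe set, and 5 or 6 did under the other settings; for HR against LR on either day and for the interaction no member passed under any setting run. In LR, where 3 passed, 5 did with the filter on standard deviation and array median, 5 with an intensity trend and 1 with only the groups compared, a fit that called 405 of all probe sets; without 1 pool the number was 2 (LR7 pool 2) to 4 (LR7 pool 1 or 3). That filter tests 7 of the 10 genes and 7336 probe sets. Of those probe sets 65.9%, 41.5% and 44.7% passed for the day over both, in HR and in LR, so shares of calls depend on it. Of the 7 genes 6, 5 and 5 passed in the same comparisons. In HR, where 5 passed, the number without 1 pool was 2 to 5. It was 2 without HR3 pool 1 or 2 or HR7 pool 1, and 3 without HR3 pool 3 or HR7 pool 2 or 3. Of 2198 values of single probe sets under these settings 2139 kept their side of the threshold and none that passed turned its sign. These values include those of HR against LR and of the interaction, where no member passed. Calls of the day difference within a group varied more. PTGIS passed in all 24 alternatives in HR and in LR. In HR the lead probe set of PTGS2 passed in 18 of 24 and OXTR in 17 of 24. In LR the second HPGD probe set passed in 9 of 22. Pools of the same number deviated together between the days by a correlation of -0.04 to 0.03 in HR and 0.05 to 0.16 in LR. In LR each pool correlated best with its own number. Pools of the same number in HR7 and LR7, which hold different heifers, gave 0.02 to 0.12. The LR values therefore cannot show whether pools of the same number share heifers, and the labels do not say so. With the pool number as a replicate block the counts of genes were 5 over both, 4 in HR and 3 in LR. The OXTR call in HR was the one lost (adjusted p = 0.0541), beside that of the second HPGD probe set in LR (adjusted p = 0.055); the block changed no other call of a member. Detection was not tested, so whether the lowest signals, such as those of PTGFR and the 2 dimmer PTGS2 probe sets, stand above background is not known.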
